A study of Mus musculus with 6 samples.

Results

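Transcription of 8 Wnt pathway genes was followed across 6 mNET-seq libraries of mouse embryonic stem cells. They were Wnt9a, a ligand, Ctnnb1, which encodes beta-catenin, the DNA-binding factors Lef1, Tcf7 and Tcf7l1, and Axin2, Nkd1 and Sp5, which beta-catenin is known to induce. All of their transcript models in the deposited table were taken by gene symbol, which gave 37 of 68473 transcripts and 8 of 17349 genes. Of the 37 models, 35 had distinct values, because 3 models of Lef1 carried the same values. The cells were C57BL/6 embryonic stem cells in 3 groups of 2 libraries: a control for Mettl3, the methyltransferase that writes N6-methyladenosine on RNA, and 2 knockouts of Mettl3, called KO1 and KO2. All 3 groups grew in serum and LIF with 3 µM CHIR99021, an inhibitor of GSK3, and 1 µM PD0325901, an inhibitor of MEK. The labels do not say whether KO1 and KO2 are single clones, or whether the replicates were separate cultures, so the spread behind each p-value may be technical.

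In the canonical Wnt pathway, a ligand binds Frizzled and LRP receptors and stops a destruction complex of Axin, APC, CK1 and GSK3 from marking beta-catenin for degradation. Stable beta-catenin enters the nucleus and joins TCF/LEF factors at target genes, among which Axin2, Nkd1 and Sp5 feed back on the pathway. An inhibitor of GSK3 stabilises beta-catenin without a ligand, and in embryonic stem cells this is known to relieve repression by Tcf7l1 and to help hold the naive state. Because control and knockout cells were all grown with the inhibitor, no group here shows the pathway without it.

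mNET-seq reads the ends of nascent RNA that RNA polymerase II protects when chromatin is cut with a nuclease. The value analysed is the authors' escaping index, the log2 of a ratio within a transcript in which a higher value goes with more polymerase signal downstream relative to the start. Its windows are not stated in the labels. The index is no measure of RNA abundance or of how much polymerase a gene carries. It is not known to be scaled to length, so levels are not compared between genes. Differences are given in log2 as knockout minus control with their limma standard error, and a gene or transcript was called at a Benjamini-Hochberg adjusted p under 0.05 over the whole table. The words fell and rose are kept for called differences. The median index over genes lay between 2.89 and 2.90 in the control libraries, between 2.69 and 2.70 in KO1 and at 2.58 in both KO2 libraries. The median difference over all genes was −0.21 in KO1 and −0.34 in KO2, which the values below are read against. Mettl3 itself had an index of 0.70 and 0.59 in control, 0.60 and 0.77 in KO1, and 0.28 and 0.43 in KO2, values that say nothing about whether its product was lost. All 7 fixed stem cell markers were in the table, beside 2 of 6 feeder fibroblast and 1 of 6 trophoblast or endoderm markers. Read depth is unknown.

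Wnt9a, a secreted Wnt ligand, was the 1 member whose lower index was called, in KO2 and in the average of the knockouts. Other members had lower values that did not pass. Its gene average was 2.10 in control replicate 1 and 2.13 in replicate 2, against 0.96 and 1.15 in KO1 and 0.56 and 0.55 in KO2. Every knockout library was below the controls, and KO2 was below KO1. In KO2 the index fell by 1.56 ± 0.15 (limma adjusted p = 0.0365), so that the ratio was 66.1% below control. In KO1 the difference was −1.06 ± 0.15, a ratio 52.0% below control, which did not pass (limma adjusted p = 0.0796). Averaged over the knockouts, the index fell by 1.31 ± 0.13 (limma adjusted p = 0.0386). Wnt9a was the 1 member of 8 called in KO2, where 7.06% of all genes were called, and the 1 of 8 called in the average, where 5.98% were. No member was called in KO1, where 0.0% of genes were called. At an unadjusted p under 0.05, 4 of 8 members and 23.1% of all genes passed in KO1. In KO2 these were 2 of 8 members and 5575 of 17349 genes. In the average they were 4 of 8 members and 5306 of 17349 genes. The call was lost on leaving out any 1 of the 6 libraries (KO2 difference between −1.57 and −1.55, limma adjusted p from 0.0756 to 0.150). It was also lost on centring each library on its median (−1.24 in KO2, limma adjusted p = 0.105), with quantile normalization (−1.21, adjusted p = 0.116) and with only control and KO2 in the fit (−1.56, adjusted p = 0.0758).

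The gene lies at chr11:59306928-59333552 on the plus strand (mm10) and overlaps no other annotated gene. It has 2 models in the table, Wnt9a-201 and Wnt9a-202, whose starts are 2 bp apart, so they are close to a single measurement. Both were called in KO2 (−1.57 ± 0.18 and −1.55 ± 0.19, limma adjusted p = 0.0354 each) and in the average (adjusted p = 0.0341). They were the 2 of 35 member profiles called in each comparison, where 9.79% of all transcript profiles were called in KO2 and 8.49% in the average. The 250 bp upstream of its start are shown because Wnt9a is the called member and both of its models begin at this start. The window, chr11:59306680-59306929 on the plus strand of GRCm38.p6 from RefSeq, has 84.4% G and C, against a median of 52.4% over all windows. It holds no exact match to TATAAA on the gene strand or to any of the 3 TCF/LEF motifs described with Sp5. Near matches were not searched.

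Wnt9a upstream: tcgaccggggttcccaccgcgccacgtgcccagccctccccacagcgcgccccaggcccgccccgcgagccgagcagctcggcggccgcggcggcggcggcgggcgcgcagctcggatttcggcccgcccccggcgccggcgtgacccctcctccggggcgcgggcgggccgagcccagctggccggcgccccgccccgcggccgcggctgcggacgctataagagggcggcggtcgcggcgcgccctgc

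**Figure D1:**
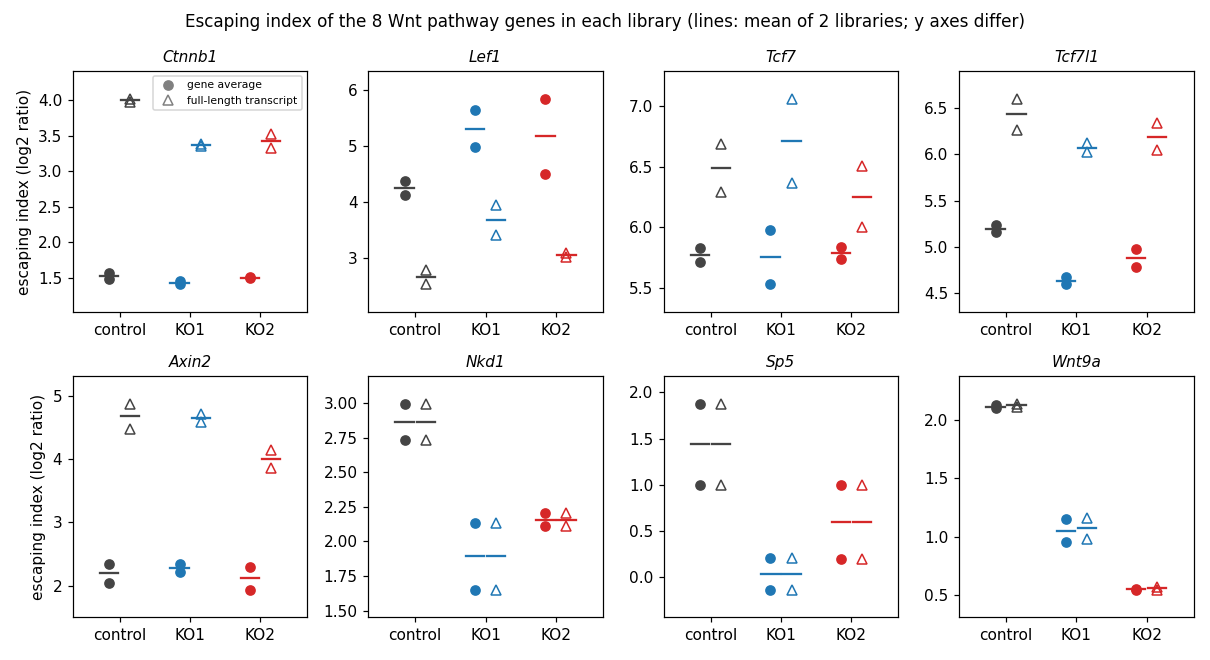
Escaping index (y axis, log2 ratio; the axes differ between panels and do not start at 0) of the 8 genes in the 2 control, 2 KO1 and 2 KO2 libraries. Filled circles are the average over a gene's distinct transcripts, open triangles the longest protein-coding model, each point is 1 library and lines mark the mean of 2 libraries; for Wnt9a the KO2 libraries (0.56 and 0.55) sit below KO1 and control.

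Ctnnb1, the gene of beta-catenin (chr9:120929216-120960507, plus strand, mm10), gave different values according to where a model starts. Averaged over its 14 models, the index was 1.56 and 1.48 in control, 1.46 and 1.41 in KO1, and 1.49 and 1.51 in KO2. The KO2 libraries lay between the controls and the KO1 libraries just below them. The differences of −0.09 ± 0.14 in KO1 and −0.02 ± 0.14 in KO2 did not pass (limma adjusted p = 0.748 and 0.948). The model with the longest span, Ctnnb1-201, which starts at the first RefSeq start, had an index of 3.98 and 4.02 in control, 3.35 and 3.38 in KO1, and 3.52 and 3.33 in KO2. The knockout libraries were all lower than the controls, by more than the spread of each pair. In the fit on 1 full-length transcript per gene, the difference was −0.63 ± 0.18 in KO1 and −0.57 ± 0.18 in KO2 (limma adjusted p = 0.102 and 0.0748). The median over all genes in that fit was −0.31 in KO1 and −0.50 in KO2, so the KO2 difference of Ctnnb1-201 was near that of the typical full-length transcript. Averaged over the knockouts it was −0.60 ± 0.15, a ratio 34.1% below control, against a median of −0.40 over all genes, and it missed the threshold (limma adjusted p = 0.0532).

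All 3 models of Ctnnb1 that start within 86 bp of the first start (Ctnnb1-201, Ctnnb1-208 and Ctnnb1-209) had average differences between −0.60 and −0.56. These models overlap over most of their length and are not independent. The other 11 models start 172 to 25816 bp downstream, and their average differences ran from −0.35 to 0.43, with 5 below and 6 above 0; the difference between these sets of models was not tested. Ctnnb1-214 starts 172 bp downstream, 6 bp before the second RefSeq start. Its index was 5.81 and 5.50 in control, 5.43 and 5.92 in KO1, and 5.77 and 5.82 in KO2, so that the groups overlapped and the average difference was 0.08 (limma adjusted p = 0.823). The retained-intron model Ctnnb1-202, 717 bp long, lay at −4.88 and −5.23 in control, −5.79 and −6.28 in KO1, and −4.58 and −4.97 in KO2. It had the lowest index of the Ctnnb1 models in each library, and none of the 14 models was called in any comparison. The gene overlaps Ulk4 and an antisense gene on the opposite strand, and the labels do not say whether counting was by strand.

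The sequence upstream of the first start is shown because the 3 models with the lower index begin just after it. The window is chr9:120933150-120933399, plus strand, GRCm38.p6, from RefSeq, with 74.8% G and C. It held no TATAAA and none of the 3 TCF/LEF motifs. The window before the second start, which overlaps it, held TATAAA 120 bp upstream of that start, and 7.59% of all windows hold TATAAA on the gene strand. That match lies downstream of the first start, inside Ctnnb1-201. It lies upstream of Ctnnb1-208 and Ctnnb1-209, which start 75 and 86 bp after the first start.

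Ctnnb1 upstream: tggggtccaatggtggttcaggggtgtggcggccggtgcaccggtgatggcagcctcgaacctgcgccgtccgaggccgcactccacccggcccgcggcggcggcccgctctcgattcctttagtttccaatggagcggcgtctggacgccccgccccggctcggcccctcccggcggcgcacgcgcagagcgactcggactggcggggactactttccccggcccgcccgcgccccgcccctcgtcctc

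**Figure D2:**
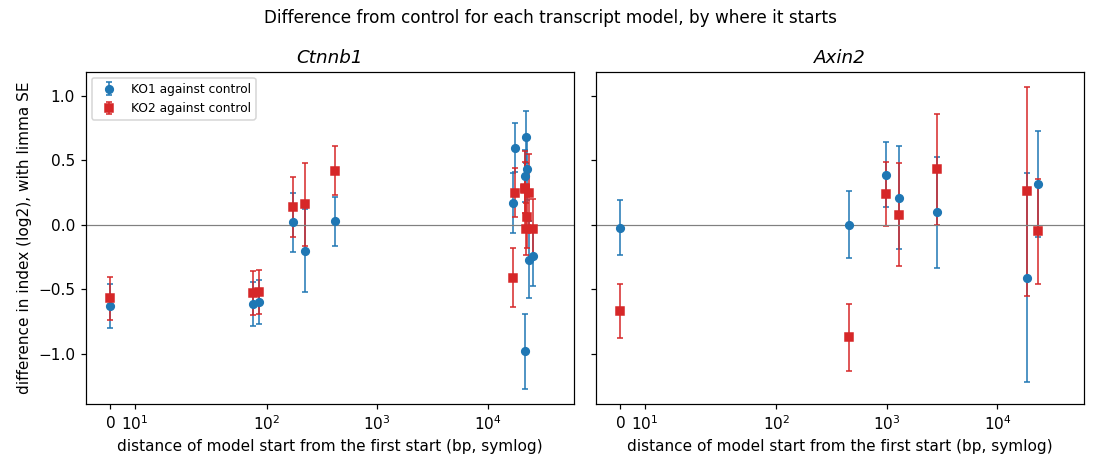
Difference in escaping index from control (y axis, log2) of each transcript model of Ctnnb1 (left) and Axin2 (right) by the distance of its start from the gene's first measured start (x axis, bp, linear near 0 and logarithmic beyond). Circles are KO1 and squares KO2, and bars are limma standard errors; the 3 Ctnnb1 models that start within 86 bp of the first start sit between −0.63 and −0.52 in both knockouts.

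Among the TCF/LEF factors, which bring beta-catenin to DNA, Lef1 had a higher index in the knockouts. Lef1 is a target as well as a partner of beta-catenin. Its gene average (chr3:131110471-131224356, plus strand, mm10) was 4.38 and 4.14 in control, 4.99 and 5.64 in KO1, and 4.50 and 5.85 in KO2. All 4 knockout libraries lay above both controls, but the KO2 libraries were further apart from each other than their mean was from control. The difference was 1.06 ± 0.48 in KO1 and 0.92 ± 0.48 in KO2, and neither passed (limma adjusted p = 0.266 and 0.252). Lef1 was the 1 member of 8 with all 4 knockout libraries above both controls, which 3.41% of all genes showed. Its average difference of 0.99 ± 0.42 was larger than that of 99.1% of genes. Without KO2 replicate 2 the KO2 difference was 0.24 and the average 0.65, and without KO2 replicate 1 they were 1.59 and 1.32.

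The full-length model Lef1-201 varied less between replicates. It had an index of 2.53 and 2.79 in control, 3.41 and 3.95 in KO1, and 3.08 and 3.03 in KO2, again with all 4 knockout libraries above both controls. In the fit on full-length transcripts the difference was 1.02 ± 0.25 in KO1 (limma adjusted p = 0.0853) and 0.40 ± 0.25 in KO2 (adjusted p = 0.289). The models Lef1-208 and Lef1-207, which start 3343 and 3385 bp downstream, held the spread in KO2: Lef1-208 lay at 4.96 in KO2 replicate 1 and 7.12 in replicate 2, against 4.93 and 4.63 in control. Lef1-207 lay at 5.45 and 7.40 in KO2, against 5.67 and 4.99 in control. No Lef1 model was called.

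Tcf7l1, which in embryonic stem cells acts mainly as a repressor of pluripotency genes, had lower values in the knockouts. Its gene average (chr6:72626378-72789254, minus strand, mm10) was 5.16 and 5.23 in control, 4.60 and 4.67 in KO1, and 4.98 and 4.78 in KO2. The groups did not overlap, and KO1 was the lowest. The difference was −0.56 ± 0.14 in KO1 and −0.31 ± 0.14 in KO2 (limma adjusted p = 0.111 and 0.187), and the KO2 difference was close to the −0.34 of the median gene. With each library centred on its median it was 0.00 in KO2, and with quantile normalization 0.08. The lower average came largely from Tcf7l1-203, a 2680 bp noncoding model at the end of the gene. It lay at 1.48 and 2.94 in control, −0.28 and 0.27 in KO1, and 1.05 and 1.42 in KO2, a difference of −2.21 in KO1 that did not pass (limma adjusted p = 0.0904). The full-length model Tcf7l1-201 differed by −0.36 in KO1 and −0.24 in KO2, and its KO2 libraries overlapped the controls. The gene overlaps 6 other annotated genes, some of them on the opposite strand.

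Tcf7, which is known mainly as an activator with beta-catenin in these cells, had overlapping groups. Its gene average (chr11:52252371-52283014, minus strand, mm10) was 5.83 and 5.71 in control and 5.73 and 5.84 in KO2, and the KO1 libraries, at 5.98 and 5.53, spanned both groups. The differences were −0.02 ± 0.19 in KO1 and 0.01 ± 0.19 in KO2 (limma adjusted p = 0.964 and 0.967), while the median gene was lower. Its 2 models differed in direction between the knockouts. Tcf7-201 gave 0.23 in KO1 and −0.24 in KO2, and Tcf7-202 gave −0.27 and 0.26, and none of these was called.

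Axin2, a scaffold of the destruction complex and a widely used readout of beta-catenin activity, had overlapping groups in its gene average. The average over 7 models (chr11:108920349-108950783, plus strand, mm10) was 2.04 and 2.35 in control, 2.35 and 2.21 in KO1, and 1.94 and 2.29 in KO2. The differences were 0.08 ± 0.20 in KO1 and −0.08 ± 0.20 in KO2 (limma adjusted p = 0.829 and 0.795). The full-length model Axin2-201 separated KO2 from the other libraries. It lay at 4.87 and 4.48 in control, 4.60 and 4.71 in KO1, and 4.15 and 3.86 in KO2. Both KO2 libraries were below the other 4, and the KO1 libraries lay between the controls. In the fit on full-length transcripts the KO2 difference was −0.67 ± 0.22, which did not pass (limma adjusted p = 0.0836) beside a median of −0.50 over all genes, and the KO1 difference was −0.02 ± 0.22. KO2 against KO1 was −0.65 ± 0.22 (limma adjusted p = 0.229).

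The second model of Axin2 by position, Axin2-204, starts 451 bp downstream and showed the same order. It lay at 0.95 and 0.54 in control, 0.97 and 0.52 in KO1, and −0.16 and −0.09 in KO2, a KO2 difference of −0.87 (limma adjusted p = 0.084). The 5 models that start further inside the gene had KO2 libraries that overlapped the controls. Axin2-202, the longest of these, lay at 3.25 and 4.13 in control, 3.66 and 3.91 in KO1, and 3.63 and 4.61 in KO2. One annotated antisense gene overlaps Axin2.

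Nkd1, an inhibitor that binds Dishevelled and is induced by the pathway, had a lower index in both knockouts. Its single model (gene at chr8:88521354-88594884, plus strand, mm10) lay at 2.99 and 2.73 in control, 1.65 and 2.13 in KO1, and 2.21 and 2.11 in KO2. Each of the 4 knockout values was under the lower control by more than the spread in any group. The difference was −0.97 ± 0.21 in KO1 and −0.70 ± 0.21 in KO2, ratios 49.0% and 38.6% below control (limma adjusted p = 0.096 and 0.0965). Averaged over the knockouts it was −0.84 ± 0.18, which missed the threshold (limma adjusted p = 0.0598). With only protein-coding genes in the fit, the same average difference passed (limma adjusted p = 0.0399), where 1784 of 13424 genes were called. With median centring, quantile normalization or the replicate block, 0 of all genes were called in the average. The model starts 6279 bp upstream of the nearest RefSeq start.

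Sp5, a zinc-finger factor of the Sp family that beta-catenin induces strongly, has 1 model of 2807 bp (chr2:70474923-70477729, plus strand, mm10). Its index was 1.00 and 1.88 in control, −0.13 and 0.21 in KO1, and 0.19 and 1.00 in KO2. The KO1 libraries lay below both controls, whereas KO2 replicate 2 was level with control replicate 1, both with a ratio of 2.00 once the offset was taken off. The difference was −1.40 ± 0.41 in KO1 and −0.84 ± 0.41 in KO2 (limma adjusted p = 0.144 and 0.224). The averaged difference of −1.12 ± 0.36 was lower than that of all but 4.29% of genes and did not pass (limma adjusted p = 0.109). The averaged difference was −0.68 without control replicate 2, and the KO2 difference was −0.40 without that library, −0.44 without KO2 replicate 1 and −1.28 without control replicate 1. No other annotated gene overlaps Sp5.

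Sp5 was also the member with TCF/LEF motifs in a window before a RefSeq start, and the sequence is shown for that reason. The 250 bp upstream of every RefSeq start were searched on both strands for CTTTGAT, for CTTTGTT and for CTTTGAA, which begin with the same letters and cannot match at the same place on the same strand. Of 32851 windows, 3.21% held the first of these, 5.03% the second, 4.46% the third and 12.0% any of the 3. Of the 13 windows of the 8 members, some of which overlap, 1 held a motif (7.69%). The windows follow RefSeq starts, not the starts of the measured models. For Nkd1, whose model starts 6279 bp upstream of its RefSeq start, the window lies inside the model. The sequence before the measured start of Nkd1 was not searched. In the Sp5 window, chr2:70474673-70474922 on the plus strand of GRCm38.p6 from RefSeq, CTTTGAT begins 104 bp before the start and CTTTGTT lies on the minus strand 222 bp before it. On the printed strand the latter reads AACAAAG. The window has 46.0% G and C, and the capitals mark both matches.

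Sp5 upstream: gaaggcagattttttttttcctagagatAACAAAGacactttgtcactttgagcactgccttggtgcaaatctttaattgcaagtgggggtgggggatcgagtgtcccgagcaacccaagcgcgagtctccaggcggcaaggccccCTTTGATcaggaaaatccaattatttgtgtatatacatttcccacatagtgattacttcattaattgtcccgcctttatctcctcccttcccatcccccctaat

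Read together, the 8 genes were spread over the range of all genes. By gene average, all 4 knockout libraries lay below both controls in 4 of 8 members (Wnt9a, Nkd1, Tcf7l1 and Sp5, the last by a difference in the offset alone), where 34.9% of all genes did so. Among the 35 profiles the count was 8, against 31.3% of all profiles, and 4 lay above, against 5.71%. The median difference of the members was −0.32 in KO1 and −0.20 in KO2, against −0.21 and −0.34 over all genes, and 6 of 8 were below 0 in each knockout, against 70.3% and 78.7% of genes. With 1 full-length transcript per gene the members' medians were −0.50 and −0.62, against −0.31 and −0.50. In that fit 1 of 8 members, Wnt9a, was called in KO2, where 17.9% of all genes were called, and in the average, where 15.3% were. The KO1 and KO2 differences share the control libraries and are not independent of each other.

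**Figure D3:**
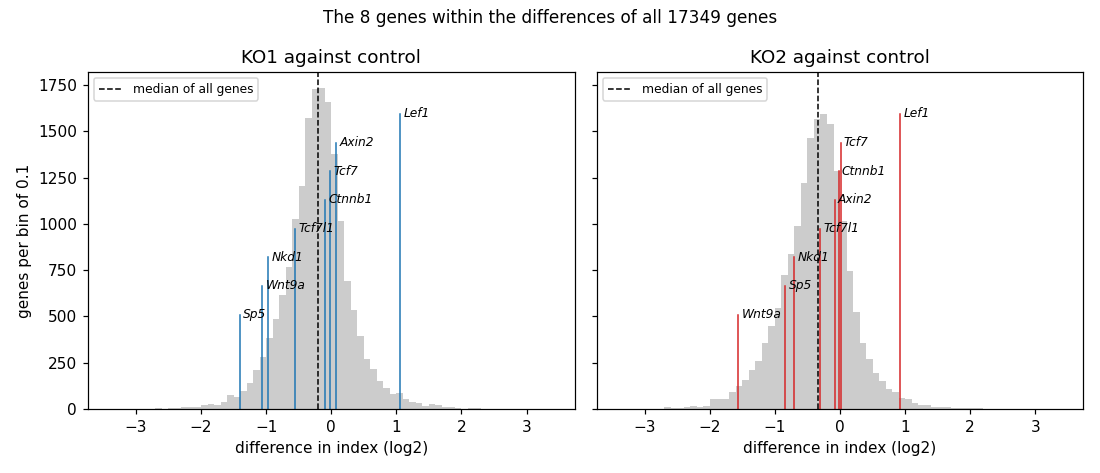
Distribution of the difference in gene-average index from control over all 17349 genes (grey bars, genes per bin of 0.1; x axis, log2) in KO1 (left) and KO2 (right). The dashed line is the median of all genes and coloured lines mark the 8 members, their heights chosen for legibility only; Wnt9a lies at −1.06 and −1.56, and Lef1 at 1.06 and 0.92.

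Between the knockouts themselves, no member was called, and 0.0% of all genes were called in KO2 against KO1. At an unadjusted p under 0.05, 1 of 8 members and 16.1% of all genes passed. That member was Wnt9a, 0.50 ± 0.15 lower in KO2 than in KO1 (limma adjusted p = 0.242). The other 7 gene averages differed between −0.17 and 0.56, Sp5 being the highest.

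The protein-coding genes with values nearest to Ctnnb1 and Axin2 were found by the root mean square difference over the 6 libraries, among 13423 genes. For Ctnnb1 they were Tgif1 (0.0389), Nup160 (0.0835) and Gm4737 (0.087), and for Axin2 they were Ankhd1 (0.0655), Igsf9 (0.107) and Ssc4d (0.108). Tgif1, for example, lay at 1.54 and 1.55 in control, 1.43 and 1.44 in KO1, and 1.49 and 1.55 in KO2. These genes were picked for that likeness, over few libraries.

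The rest of the pathway was read out of the same fit, in 11 lists of 112 genes by role, of which 85 were in the table. In KO2, 8 of the 85 fell and none rose, where 6.9% of all genes fell and 0.161% rose. In KO1 none passed, and 17 of 85 had an unadjusted p under 0.05, where 23.1% of all genes did. In the average, 6 of 85 fell, where 5.79% of all genes did. The median difference over the 85 genes was −0.20 in KO1 and −0.42 in KO2, and 84.7% were below 0 in KO2, against 78.7% of all genes. Among the 13424 protein-coding genes of the same fit, 83.3% were below 0 in KO2, close to the share of the lists. Their median was −0.36, and 1056 of them fell and 10 rose. Each of the 8 calls in KO2 was lost with median centring, with quantile normalization and on leaving out any 1 library.

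Receptors held 3 of the 8 pathway genes that fell in KO2, out of 15 measured, where 6.9% of all genes fell. Fzd5, a Frizzled receptor of canonical ligands, lay at 3.23 and 2.98 in control, 2.52 and 2.58 in KO1, and 1.82 and 1.83 in KO2, and fell by 1.28 ± 0.15 (limma adjusted p = 0.0365). The KO1 libraries lay between the control and KO2 libraries. Fzd1 fell by 1.15 ± 0.21 and Fzd3 by 0.75 ± 0.15 (limma adjusted p = 0.0434 and 0.0485). Over the 15 receptors and co-receptors, all of them measured, the median difference in KO2 was −0.64. Of these, 13 (86.7%) were below 0, near the 83.3% of protein-coding genes. Fzd2, which did not pass in KO2 (−1.01 ± 0.30, limma adjusted p = 0.0955), had the lowest difference of the receptors in KO1 (−1.68 ± 0.30, adjusted p = 0.0844).

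Secreted and surface inhibitors held a further 2, out of 10 measured, beside the same 6.9% of all genes. Sfrp1, a secreted Frizzled-related protein that binds Wnt ligands, lay at 5.75 and 5.84 in control, 4.70 and 4.91 in KO1, and 4.56 and 4.53 in KO2. It fell by 1.25 ± 0.14 in KO2 (limma adjusted p = 0.0365), and in KO1 the difference of −0.99 ± 0.14 did not pass (adjusted p = 0.0796). Apcdd1, a surface inhibitor of Wnt signalling, fell by 1.22 ± 0.19 in KO2 (limma adjusted p = 0.038). Of the 10 inhibitors measured out of 15, 9 (90.0%) were below 0 in KO2, against 83.3% of protein-coding genes. The median of the 10 was −0.88. In KO1, 7 were below 0, with a median of −0.27, near the −0.21 of all genes.

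In KO2, where 6.9% of all genes fell, 1 of 12 in the destruction complex and its regulators fell. This was Rnf146, the ubiquitin ligase that removes tankyrase-modified Axin (−1.17 ± 0.18, limma adjusted p = 0.0378). The median of the 12 was −0.16, above that of all genes. Csnk1a1, the kinase that primes beta-catenin for GSK3, differed by −0.57 ± 0.13 (limma adjusted p = 0.0591), and Amer1, a membrane adaptor of Apc, by −0.91 ± 0.20 (adjusted p = 0.0576). The 12 nuclear cofactors had a median of −0.10 in KO2, and none passed. With 1 full-length transcript per gene, Ctnnbip1, which blocks the binding of beta-catenin to TCF factors, passed in the average (−0.94, limma adjusted p = 0.034), as did the corepressor Tle1 (−0.92, adjusted p = 0.0356), where 15.3% of all genes were called. Their gene averages had been −0.25 and −0.18.

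Among 6 measured targets of beta-catenin outside the members, Ascl2 fell. This basic helix-loop-helix factor of stem cells and trophoblast lay at 1.76 in each control, at 0.75 and 0.72 in KO1 and at 0.71 in each KO2 library. The 4 knockout libraries lay close together, well below both controls. It fell by 1.05 ± 0.14 in KO2 (limma adjusted p = 0.0365), and in KO1 the difference of −1.02 ± 0.14 did not pass (adjusted p = 0.0796). Ccnd1, the gene of cyclin D1, differed by −0.51 ± 0.16 in KO2 (limma adjusted p = 0.10). The targets Cdx2, Cdx4, Cd44, Mixl1, Sp8 and T were not analysed here.

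Of 5 pluripotency genes that Tcf7l1 is known to repress, Tfcp2l1 fell in KO2 (−0.72 ± 0.13, limma adjusted p = 0.0418). Nanog differed by −0.29 ± 0.14 and Esrrb by 0.15 ± 0.15 in KO2, and neither passed (limma adjusted p = 0.208 and 0.519). Of the 18 Wnt ligands besides Wnt9a, 5 were in the table and none passed. Their differences in KO2 ran from −1.13 to −0.31, and in KO1 from −0.59 to 0.49. The remaining lists held no call by gene average. In the average of both knockouts, Dvl3, a Dishevelled protein, passed with full-length transcripts (−1.25, limma adjusted p = 0.0294). So did the R-spondin receptor Lgr6 (−1.11, adjusted p = 0.0442), in a fit where 15.3% of all genes were called. With protein-coding models only, the R-spondin Rspo4 (−1.27, limma adjusted p = 0.0443) and Cdh1, the gene of E-cadherin (−0.56, adjusted p = 0.0336), also passed. In that setting 2829 of 12968 genes were called in the average. In KO2 the medians of these remaining lists were −0.38 for the 3 genes of Wnt lipidation and secretion and −0.68 for the 6 measured of the R-spondin axis. They were −0.42 for Dishevelled and its kinases and −0.66 for the adhesion partners of beta-catenin.

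**Figure D4:**
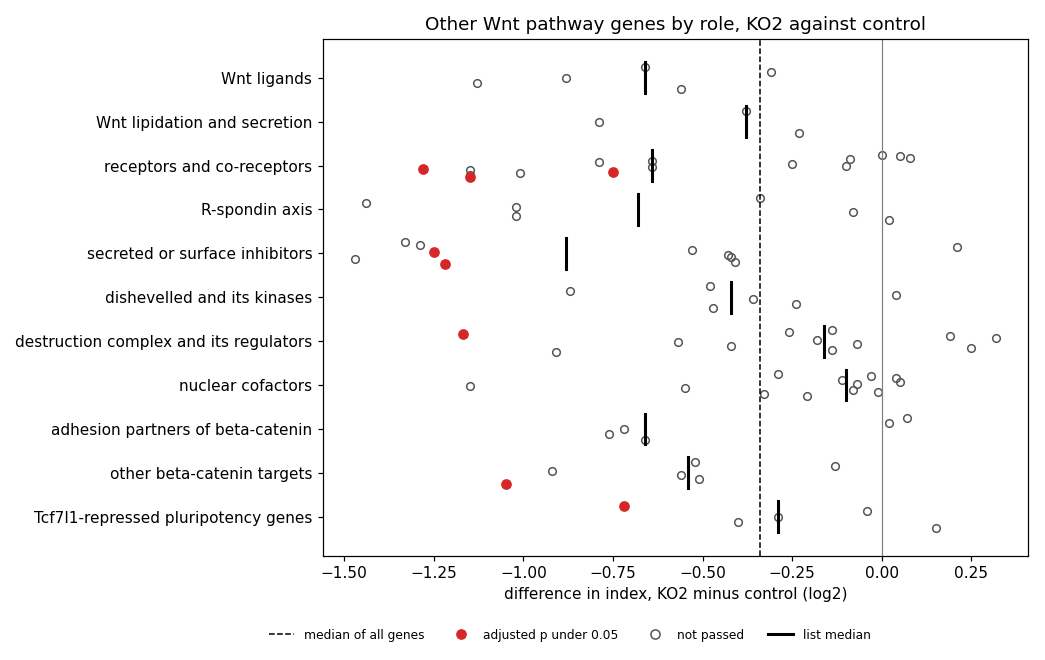
Difference in escaping index between KO2 and control (x axis, log2) for the 85 other measured pathway genes, in rows by list. Each circle is 1 gene, filled red where the limma adjusted p was under 0.05, short bars are list medians and the dashed line is the median of all genes (−0.34); all 8 filled circles lie below 0.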

How the data were processed

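mNET-seq was made from 2 control, 2 KO1 and 2 KO2 libraries. Per the labels' protocols, polymerase II was pulled down from MNase-cut chromatin and its short RNA made into libraries. The submitters' processing notes name CASAVA, HISAT2 2.1.0, Trimmomatic 0.38 and featureCounts, and the build mm10. The authors deposited 1 table of log2 values, an escaping index, with no missing values. In every library, these were log2 of a ratio plus an offset, 0.5 times the smallest linear value.

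Of 68473 transcripts, 68397 matched GENCODE M21 without version. Identical transcripts of a gene were taken once and the others averaged, giving 17349 genes. limma 3.58.1 (R 4.3.3) was fitted on all 6 libraries (group means, trend, two-sided, Benjamini-Hochberg over all genes, 3 residual degrees of freedom), and likewise 66944 distinct transcript profiles. No pseudocount was applied, since the values were log2 already. Libraries were not rescaled to each other, and the calls in KO2 and in the average were lost with median centring or quantile normalization. The procedure was run on simulated data in which a small set of genes was changed and the rest had no difference between groups. A lower index in most genes, as in these libraries, was not simulated. Tables used Python 3.11.15 and pandas 2.3.3.

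The members and lists were chosen with earlier results of these data known. Named genes were the 8 members, every called gene of the 11 lists and, by p in the average, up to 3 per list. Alternatives were 1 full-length transcript per gene (the longest protein-coding span), protein-coding models or genes alone, median centring, quantile normalization, pseudocounts of 0.1 and 1, leaving out the lowest 25% of genes, the groups compared alone, no trend, a replicate block and leaving out each library.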

Additional observations from a re-analysis of the deposited data

Results flagged for a closer look

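Tcf7-202, the Tcf7 model with the first start, had values on opposite sides of control in the knockouts. Its index was 4.97 and 5.14 in control, 4.89 and 4.69 in KO1, and 5.47 and 5.17 in KO2, so that both KO1 libraries lay below and both KO2 libraries above the controls. The difference from control was −0.27 ± 0.19 in KO1 and 0.26 ± 0.19 in KO2, and neither passed (limma adjusted p = 0.44 and 0.401). The difference between the knockouts themselves was 0.53 ± 0.19 and did not pass (limma adjusted p = 0.27). With quantile normalization the KO1 difference was 0.03.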

How the results depend on the processing

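The number of members called moved with the scaling. In KO2 and in the average, 0 members, 0 member transcripts and 0 of all genes were called with median centring, with quantile normalization and with the replicate block. With the groups compared alone, 0 members and 0 of all genes were called in KO2, and transcripts were not run. Centring moved the median of all genes in KO2 from −0.34 to −0.02. Without the lowest 25% of genes, 0 members were called in KO2 and in the average, since Wnt9a was among those left out. Leaving out each library in turn gave 0 members, 0 member transcripts and 0 genes called in each comparison. With protein-coding genes alone, and with protein-coding models only, 1 member was called in KO1 (Wnt9a) and 2 in the average (Wnt9a and Nkd1). Other pathway genes refitted that passed under full-length, protein-coding, filter or pseudocount settings in the average, and not by gene average, were Ccnd1, Cdh1, Ctnnbip1, Dvl3, Fzd2, Fzd3, Lgr6, Rspo4, Tfcp2l1, Tle1 and Tnfrsf19, and in KO1 Ascl2 and Sfrp1, each with a negative difference.

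The count over all genes in KO2 was 1225, and in the average 1038. It was 3111 and 2657 with full-length transcripts, 3186 and 2829 with protein-coding models, and 2101 and 1784 with protein-coding genes alone, where KO1 gave 694 and 109 in the last 2 settings. The replicate numbers did not pair the libraries (r of deviations −0.01601, −0.001801 and 0.02748 over genes), and the block left no gene called.

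With median centring, signs changed for Ctnnb1 (0.12 in KO1, 0.30 in KO2, 0.21 in the average), Tcf7 (0.18 in KO1, 0.26 in the average), Tcf7l1 (0.00 in KO2), Axin2 (0.23 in KO2), Tcf7-201 (0.09 in KO2, 0.27 in the average), Tcf7l1-201 (0.09 in KO2) and Axin2-201 (0.20 in KO1). So did the averages of Ctnnbip1 (0.01), Notum (0.21), Tle1 (0.08) and Wls (0.03). With quantile normalization the same genes gave 0.12, 0.32 and 0.22 for Ctnnb1, 0.23 and 0.33 for Tcf7, 0.08 for Tcf7l1 and 0.23 for Axin2. Their models gave 0.22 and 0.38 for Tcf7-201, 0.21 and 0.07 (average) for Tcf7l1-201, 0.25 for Axin2-201 and 0.03 for Tcf7-202 in KO1. Averages were 0.10 for Ctnnbip1, 0.04 for Nanog, 0.23 for Notum, 0.14 for Tle1 and 0.09 for Wls, and Fzd3 was 0.01 in KO1. With full-length transcripts, Tcf7 was 0.23 in KO1 and −0.24 in KO2, Axin2 −0.02 in KO1 and −0.35 in the average, and Notum 0.06. With protein-coding models, Ctnnb1 was 0.11, 0.01 and 0.06, and Axin2 −0.01 in the average.

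Leaving out 1 library changed the sign of some values. The ranges for gene averages were −0.06 to 0.03 for Ctnnb1 in KO2, −0.24 to 0.20, −0.04 to 0.07 and −0.11 to 0.11 for Tcf7 in KO1, KO2 and the average, and −0.07 to 0.24, −0.26 to 0.09 and −0.15 to 0.15 for Axin2. In the average they were −0.16 to 0.05 for Notum and −0.99 to 0.14 for Wnt2. For models they were −0.12 to 0.58, −0.49 to 0.02 and −0.20 to 0.20 for Tcf7-201, −0.22 to 0.17 for Axin2-201 in KO1, −0.08 to 0.24 for Ctnnb1-214 in the average and −0.06 to 0.92 for Axin2-202 in KO2. Without a change of sign, Wnt9a ranged from −1.16 to −0.96 in KO1, −1.57 to −1.55 in KO2 and −1.36 to −1.26 in the average. Lef1 ranged from 0.24 to 1.59 in KO2 and 0.65 to 1.32 in the average, and Sp5 from −1.28 to −0.40 and −1.56 to −0.68. The causes of these changes were not tested, and refitting with another scaling is no test of them. Read depth is unknown, so no detection limit is given.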
